A study of Ovis aries with 40 samples.

Results

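The proximal and the distal lung of fetal sheep were compared at 100 days of gestation. This comparison rests on 8 of the 40 RNA-seq libraries of the series, chosen by their labels for region and age. They were 2 proximal and 2 distal libraries from WT animals and 2 proximal and 2 distal libraries from CF animals. The WT animals were American Romney sheep bred in the usual way, labelled as healthy donors. The CF animals were *CFTR*-/- fetuses of the same breed, obtained by somatic cell nuclear transfer from 1 gene-edited line of fetal fibroblasts, and so they were clones. No treatment separates the groups, and the whole series follows both regions and both genotypes from 65 days of gestation to term at 5 ages. Each proximal library was paired with the distal library of the same genotype and replicate number, which gave 4 pairs. Both libraries of every pair carried 1 animal label, but both WT pairs carried the same label, so that the 4 pairs came from 3 animal labels. The replicate number alone joined the WT libraries into pairs. The label of CF pair 2 was also carried by the WT libraries of replicate 2 at day 65. The study describes the replicates of each genotype and age as different animals. The labels cannot settle whether both WT pairs came from the same animal, since the label of CF pair 2 recurs in the other genotype. The spread between the WT pairs may therefore be that within 1 animal or that between animals. The p-values measure the spread between these 4 pairs.

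The airways of the lung branch from a tube of endoderm. Cells left behind in the stalks form the proximal airways, with ciliated, basal and secretory cells, cartilage and smooth muscle around them, and the transcription factor SOX2 marks this epithelium. Cells at the growing tips carry SOX9 and respond to FGF from the surrounding mesenchyme, and they later give rise to the alveolar type 1 cells of gas exchange and the alveolar type 2 cells that make surfactant. In bulk tissue a lower level of a transcript can come from fewer cells or from less RNA per cell, and these cannot be told apart.

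Depth ran from 26617761 to 41282976 reads assigned to genes in the WT libraries and from 89854181 to 95350386 in the CF libraries, and so differed with genotype rather than with region. Mitochondrial genes held 1.54% to 2.33% of reads and the 10 most abundant genes 4.67% to 6.84%. The tissue carried the markers of lung in every library. *NKX2-1*, the transcription factor that specifies lung epithelium, was at 99.6 to 173 CPM (reads of a gene, scaled to the library total) in proximal and 103 to 123 CPM in distal libraries. *SFTPC*, the alveolar surfactant protein C gene, was at 551 to 927 CPM in proximal and 685 to 1112 CPM in distal libraries. *CFTR*, the gene targeted in the CF animals, was at 25.2 and 22.2 CPM in WT proximal, 32.8 and 27.2 CPM in WT distal, 17.4 and 13.1 CPM in CF proximal and 19.9 and 24.1 CPM in CF distal libraries. Within each region both CF libraries lay below both WT libraries, and transcript of the targeted gene was counted in every CF library. Reads outside the edited part of the gene do not check the edit.

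Distal replicates were closer to each other than the regions of a pair were, and proximal replicates were not. Over the 13884 genes whose mean log2 CPM was at least 1, the root mean square log2 difference between the proximal and distal library of a pair was 0.286 to 0.529, with a median of 0.361. Between replicates it was 0.231 in WT distal and 0.230 in CF distal lung, below every pair of regions, and 0.464 in WT proximal and 0.736 in CF proximal lung. The WT libraries were as close across pairs, at 0.322 and 0.349, as within them, at 0.343 and 0.378. Libraries of different genotype were 0.636 to 0.927 apart, above every distance between the regions of a pair. The first principal component, with 48.2% of the variance, separated WT from CF. CF proximal replicate 2 stood apart from the other CF libraries, and CF pair 2 had 795 genes with a 2-fold or larger difference between its regions, against 129 in CF pair 1, 263 in WT pair 1 and 341 in WT pair 2. The differences between regions did not follow one pattern across pairs, of which both WT pairs carry 1 animal label. Pearson's r between the differences of 2 pairs, across 13884 genes, was -0.33 to 0.42 over the 6 combinations, and 4 of the 6 were below 0. These are correlations across genes, which are not independent replicates.

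**Figure D1:**
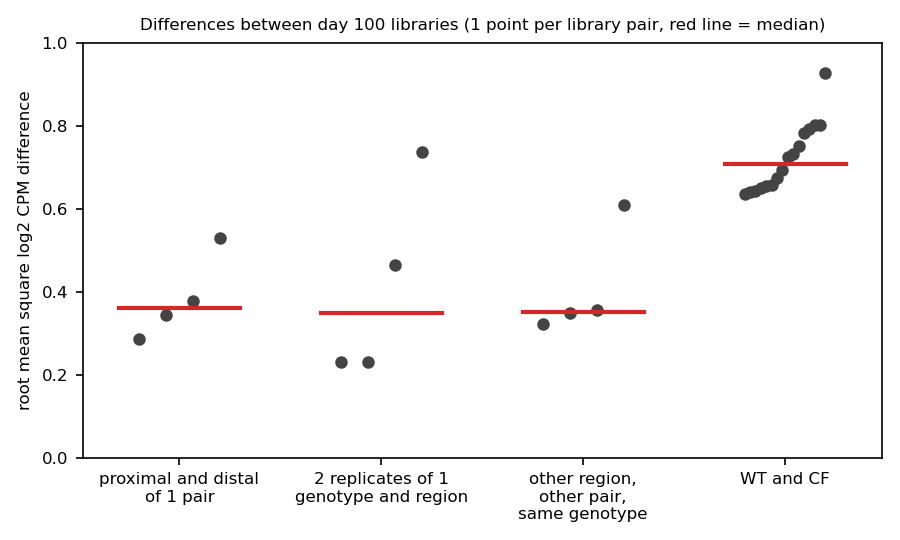
Root mean square log2 CPM difference over 13884 genes (y axis) for each pair of day 100 libraries, grouped on the x axis by what the 2 libraries share; points are library pairs and red lines medians. The regions of a pair (0.286 to 0.529) lie above the distal replicates (0.230 and 0.231), while the proximal replicates lie at 0.464 and 0.736, and all 16 WT against CF distances lie above the regions of a pair.

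Of 18558 genes tested within pairs, 1 was a differentially expressed gene (DEG) between proximal and distal lung, 0.00539% of those tested. A DEG had an adjusted p of 0.05 or less (edgeR quasi-likelihood test with the pair as block, Benjamini-Hochberg) and differed by at least 0.58 on the log2 scale in either direction. At an unadjusted p below 0.05 there were 622 genes. Of all genes tested, 1.91% had such a p with the higher level in proximal lung and 1.44% with the lower level there. DESeq2 with the same design and limits called 50 genes, 0.228% of those it tested, 28 of them higher and 22 lower in proximal lung. The median log2 fold change was 0.0904 in size over the 13884 genes, beside a median standard error of 0.138. All fold changes below are on the log2 scale, proximal over distal, from the edgeR fit.

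The DEG was *A2M*, which encodes alpha-2-macroglobulin, a plasma and tissue inhibitor of many proteases. It is listed as LOC101122940 on chromosome 3, from 205242533 to 205313364 of Oar_v4.0, and was matched to its symbol through RefSeq. In WT lungs *A2M* was at 175 and 148 CPM in proximal and 445 and 417 CPM in distal libraries. In CF lungs it was at 28.1 and 14.3 CPM in proximal and 111 and 71.2 CPM in distal libraries. The proximal library was the lower one in every pair, although the WT proximal libraries lay above the CF distal libraries. The log2 fold change was -1.78 with a standard error of 0.16 (95% interval -2.15 to -1.41), and the adjusted p was 0.0429 (edgeR). *A2M* was not a DEG without CF pair 1 (adjusted p = 0.0659, edgeR), without WT pair 2 (adjusted p = 0.159) or with the 2 WT pairs summed to 1 (adjusted p = 0.322). Nor was it one without the pair as block (adjusted p = 0.216, edgeR), with counts thinned to equal depth (0.0632), with glmTreat (0.178) or in the fit of all 40 libraries (0.163).

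To describe the genes beyond *A2M*, the 37 genes at an unadjusted p of 0.001 or less were taken, 0.199% of those tested. This limit was set after their values were seen, so these genes are a description of the day 100 difference and not a set of DEGs. With the exception of *A2M*, their adjusted p ran from 0.0551 to 0.494 (edgeR). Of the 37, 20 were higher and 17 lower in proximal lung. A small p within pairs nearly requires 1 direction in all 4 pairs, which all 37 had. Across all genes, 4.30% were higher and 6.06% lower in proximal lung in all 4 pairs. The 37 log2 fold changes were 0.46 to 5.19 in size, with a median of 0.91. DESeq2 called 30 of the 37. In 7 of the 20 and 12 of the 17 the 4 proximal and the 4 distal libraries did not overlap, against 0.496% of all genes without overlap and higher in proximal lung and 0.604% without overlap and lower there. Nothing is read from these counts, since the choice of the 37 used the same values. Of the 37, 6 carry LOC identifiers, 2 of which have a symbol in RefSeq. *LOC443475*, *LOC105605933*, *LOC101112345* and *LOC101119878* have none.

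Among the 37 genes, *C3*, *PIGR*, *CCL21* and *MUC1* had the higher level in proximal lung. *C3*, the central component of complement, was at 112 and 93.2 CPM in WT proximal and 43.0 and 54.4 CPM in WT distal libraries, and at 50.1 and 72.4 CPM in CF proximal and 28.2 and 23.9 CPM in CF distal libraries. Its log2 fold change was 1.15 with a standard error of 0.15 (adjusted p = 0.197, edgeR). *PIGR*, the receptor that carries polymeric immunoglobulins across epithelia, was at 31.4 and 20.7 CPM in WT proximal, 12.6 and 13.5 CPM in WT distal, 9.59 and 7.74 CPM in CF proximal and 4.63 and 3.97 CPM in CF distal libraries. Both genotypes had the higher level in proximal lung in both of their pairs, with a log2 fold change of 0.98 and a standard error of 0.16 (adjusted p = 0.278, edgeR). *CCL21*, a chemokine of lymphatic endothelium that guides lymphocytes and dendritic cells, had a log2 fold change of 0.80 with a standard error of 0.14. *MUC1*, a membrane mucin of airway and alveolar epithelium, had 0.51 with a standard error of 0.10.

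Surfactant genes were not of one direction. *SFTPD*, the collectin surfactant protein D, was at 98.4 and 87.6 CPM in WT proximal, 60.4 and 59.1 CPM in WT distal, 80.1 and 115 CPM in CF proximal and 67.6 and 66.1 CPM in CF distal libraries, so that all 4 proximal libraries lay above all 4 distal ones. Its log2 fold change was 0.58 with a standard error of 0.11 (adjusted p = 0.421, edgeR). *SFTPA1*, the other collectin, and *SFTPB*, the hydrophobic protein B that spreads the surfactant film, had log2 fold changes of 0.63 and 0.40 and were higher in proximal lung in 4 of 4 pairs. *SFTPC* had -0.25 and *LAMP3*, a lamellar body membrane protein gene, -0.33, and both were lower in proximal lung in 4 of 4 pairs. None of these 5 genes was a DEG with edgeR. The list of 20 alveolar type 2 genes had 17 tested members. At an unadjusted p below 0.05, 4 were higher and 3 lower in proximal lung, beside 1.91% and 1.44% of all genes. The median log2 fold change of the list was 0.06 beside -0.0035 for all genes tested.

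Genes of the extracellular matrix and basement membrane stood on both sides. *TNXB*, a tenascin of loose connective tissue, was at 31.6 and 28.5 CPM in WT proximal, 11.3 and 10.5 CPM in WT distal, 7.38 and 15.6 CPM in CF proximal and 3.80 and 10.1 CPM in CF distal libraries. Its log2 fold change was 1.12 with a standard error of 0.18 (adjusted p = 0.278, edgeR). *LAMA2*, the laminin chain of muscle and nerve basement membrane, was at 10.9 and 7.58 CPM in WT proximal, 5.44 and 4.57 CPM in WT distal, 8.74 and 5.88 CPM in CF proximal and 2.34 and 1.22 CPM in CF distal libraries. All proximal libraries were above all distal ones, with a log2 fold change of 1.48 and a standard error of 0.28. *MFAP5*, a microfibril protein gene, had a log2 fold change of 1.30 and *CCDC80*, a secreted matrix protein gene, of 0.52. On the distal side stood *FREM3*, a basement membrane matrix protein gene, with -1.08, and *ADAMTS6*, a secreted metalloproteinase gene, with -0.80. The matrix list had 49 tested genes (collagens other than those of the cartilage list, with genes of elastic fibres, tenascins and other matrix proteins). At an unadjusted p below 0.05, 2 were higher in proximal lung (*TNXB* and *MFAP5*), beside 1.91% of all genes. At that limit 4 were lower (the basement membrane collagen genes *COL4A5* and *COL4A6*, with *COL24A1* and *EFEMP1*), beside 1.44% of all genes. The median of the list was 0.06.

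*MLIP* had the largest fitted log2 fold change of the 37, at 5.19. It encodes a protein of muscle that binds lamin A and C. In WT lungs it was at 2.86 and 1.82 CPM in proximal libraries (100 and 47 reads) and at 0.0706 and 0.152 CPM in distal libraries (2 and 6 reads). In CF lungs it was at 0.561 and 0.646 CPM in proximal libraries (53 and 59 reads) and no read was counted in either distal library. The fitted value therefore depends on the prior count, and no fold is given for CF lung. The adjusted p over the 4 pairs was 0.216 (edgeR). *MLIP* passed the filter on counts through the proximal libraries alone, so nothing is read from its p. The other higher genes included *GFRA1*, the co-receptor for the neurotrophic factor GDNF (log2 fold change 1.20), *NELL2*, a secreted protein of neurons (1.30), *SOSTDC1*, a secreted inhibitor of BMP and WNT (0.73), *MCTP2*, a membrane protein with C2 domains (0.87), *SLC1A1*, a glutamate transporter (0.76), and *SLC39A8*, a zinc importer (0.62).

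**Figure D2:**
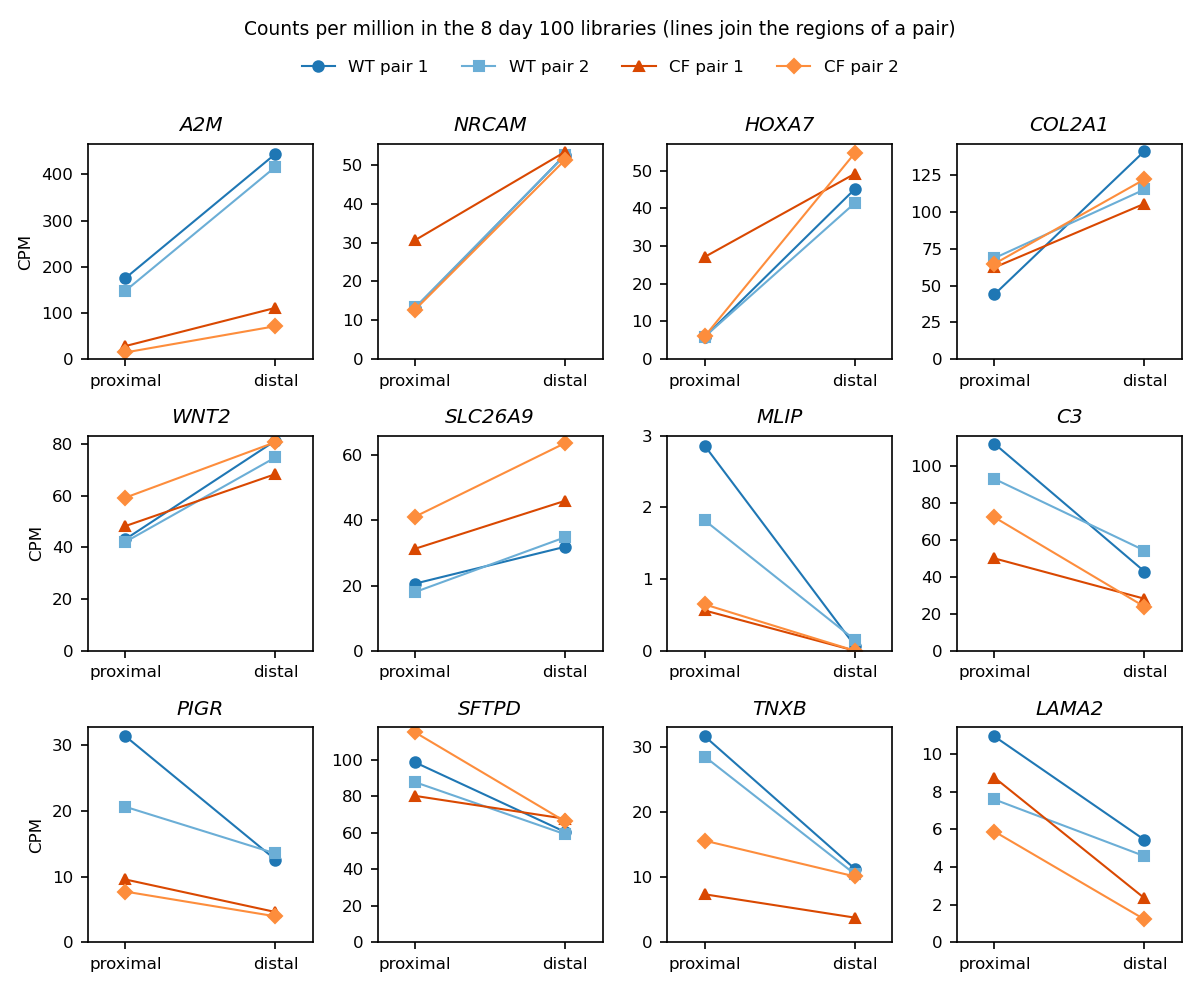
CPM of 12 of the 37 genes (y axis, starting at 0) in the 8 libraries; lines join the proximal and distal library of a pair, blue for WT and orange for CF. A2M, NRCAM, HOXA7, COL2A1, WNT2 and SLC26A9 slope upwards to distal lung in every pair and the other 6 slope downwards, and CF pair 1 has the flattest line for NRCAM and HOXA7.

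Among the 17 genes with lower levels in proximal lung was *WNT2*, the ligand of the distal lung mesenchyme that acts early in lung specification. It was at 43.2 and 42.2 CPM in WT proximal, 81.4 and 74.9 CPM in WT distal, 48.3 and 59.3 CPM in CF proximal and 68.4 and 80.8 CPM in CF distal libraries. All 4 proximal libraries lay below all 4 distal ones, with a log2 fold change of -0.67 and a standard error of 0.11 (adjusted p = 0.278, edgeR). *BMPER*, a secreted modulator of BMP signalling, had a log2 fold change of -0.55 with a standard error of 0.09. *NRCAM*, an adhesion molecule of neurons, was at 13.0 and 13.3 CPM in WT proximal, 52.6 and 52.5 CPM in WT distal, 30.6 and 12.8 CPM in CF proximal and 53.4 and 51.3 CPM in CF distal libraries. The distal libraries were close to each other, and CF proximal replicate 1 lay between the regions. The log2 fold change was -1.70 with a standard error of 0.21 (adjusted p = 0.162, edgeR).

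*HOXA7* had the same arrangement. It is one of the transcription factors that set position along the body axis, and is listed as LOC105606599 on chromosome 4, from 68845166 to 68861962 of Oar_v4.0. *HOXA7* was at 5.92 and 5.96 CPM in WT proximal, 45.1 and 41.4 CPM in WT distal, 27.1 and 6.07 CPM in CF proximal and 49.2 and 54.7 CPM in CF distal libraries. Its log2 fold change was -2.45 with a standard error of 0.36 (adjusted p = 0.216, edgeR). The annotated span lies within that of *HOXA9* on the same strand and overlaps that of *HOXA3*, and how reads there were assigned is not given. *HOXA9* had a log2 fold change of -2.34 at 0.0438 to 1.72 CPM in proximal and 1.69 to 4.51 CPM in distal libraries. In CF pair 1 *HOXA9* was level, at 1.72 CPM in proximal and 1.69 CPM in distal lung. *HOXA3* had a log2 fold change of 0.04. Of 32 HOX genes listed, 20 were tested. At an unadjusted p below 0.05, 4 were lower in proximal lung, namely *HOXA7*, *HOXA9*, *HOXB8* (log2 fold change -1.11) and *HOXB9* (-1.76), and 2 were higher, namely *HOXB5* (0.47) and *HOXC4* (0.76). Of all genes, 1.44% were lower and 1.91% higher at that limit. *HOXA2*, *HOXA4* and *HOXA5* had log2 fold changes of 0.20, -0.01 and 0.09. The members with the lower level were of paralogue groups 7 to 9, and *HOXB7* at -0.20, *HOXD8* at 0.36 and *HOXD9* at 1.10 of these groups did not pass that limit.

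*COL2A1*, the fibrillar collagen of cartilage, was lower in proximal than in distal lung. It was at 44.0 and 68.7 CPM in WT proximal, 142 and 115 CPM in WT distal, 62.3 and 64.8 CPM in CF proximal and 106 and 122 CPM in CF distal libraries. No proximal library reached the level of a distal one, and the log2 fold change was -1.02 with a standard error of 0.16 (adjusted p = 0.278, edgeR). At an unadjusted p below 0.05 the cartilage genes *COL9A2* (-0.79) and *LECT1*, which encodes chondromodulin (-0.34), were also lower. With *COL2A1* they made 3 of the 24 cartilage genes tested, beside 1.44% of all genes lower at that limit. None of the 24 was higher, beside 1.91% of all genes. The cartilage proteoglycan gene *ACAN* had a log2 fold change of 0.20 (95% interval -0.28 to 0.68), and the median of the list was 0.0057.

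Genes of chloride and fluid transport had log2 fold changes of both signs. *SLC26A9*, an anion channel of airway epithelium, was at 20.6 and 18.0 CPM in WT proximal, 31.9 and 34.8 CPM in WT distal, 31.3 and 41.2 CPM in CF proximal and 46.0 and 63.8 CPM in CF distal libraries. Within each genotype its proximal libraries lay below the distal ones, with a log2 fold change of -0.69 and a standard error of 0.11 (adjusted p = 0.278, edgeR). *CFTR* had -0.43 (95% interval -0.76 to -0.10) and was lower in proximal lung in 4 of 4 pairs. *SLC12A2*, the sodium, potassium and chloride cotransporter that loads epithelial cells with chloride, had -0.46, *CLCA1* had -0.92, *ATP1B1*, a subunit of the sodium pump, -0.24 and *KCNJ15*, a potassium channel gene, -0.41. These 6 were the members at an unadjusted p below 0.05 among 28 tested, and none of the 28 was higher in proximal lung at that limit, beside 1.44% of all genes lower and 1.91% higher. In all 4 pairs, 8 of the 28 were lower and 2 higher in proximal lung, beside 6.06% and 4.30% of all genes. *ANO1*, a calcium-activated chloride channel gene, had 0.16, and the sodium channel subunit genes *SCNN1A* and *SCNN1B* 0.21 and 0.28. The median of the list was 0.05.

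In the FGF pathway, *ETV4* and *ETV5*, transcription factors induced by FGF at the distal tips, had log2 fold changes of -0.51 and -0.47 and were lower in proximal lung in 4 of 4 pairs. With *FLRT3* (-0.34) and *SPRED1* (-0.26) they were the 4 of 26 tested members at an unadjusted p below 0.05, and no member was higher at that limit. The ligand *FGF10* had -0.26 and the receptor *FGFR2* -0.16, and the list median was -0.09. Among 45 WNT pathway genes tested, 5 were higher and 3 lower in proximal lung at an unadjusted p below 0.05. The higher ones were the secreted inhibitors *WIF1* (0.60), *SFRP1* (0.77) and *DKK3* (0.40), the agonist *RSPO2* (0.41) and the feedback gene *NKD1* (0.46). The lower ones were *WNT2* and the inhibitors *SFRP2* (-0.61) and *SFRP4* (-0.51). None of the 713 list genes tested was a DEG with edgeR, whereas 92 had an unadjusted p below 0.05, 55 of them higher and 37 lower in proximal lung, beside 1.91% and 1.44% of all genes. The lists were chosen with earlier results of these data known, so nothing is read from these counts.

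The remaining distal-side genes of the 37 were *MUC15*, a membrane mucin gene (log2 fold change -0.93), *CDS1*, an enzyme of phospholipid synthesis (-0.69), *SERPINI1*, the neuronal protease inhibitor neuroserpin (-0.90), *NPTX2*, a pentraxin of neurons (-1.08), *SERTM1*, a small membrane protein gene (-0.57), *CTNNAL1*, a catenin-like protein gene (-0.46), *AIF1L*, an actin-binding protein gene (-0.50), and *MREG* (-0.58).

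Of the genes that commonly mark the proximal and distal lung, none was a DEG with edgeR. *SOX2* was at 12.4 to 30.1 CPM in proximal and 13.9 to 21.0 CPM in distal libraries, with a log2 fold change of 0.20 (95% interval -0.19 to 0.59). *SOX9* was at 33.0 to 89.7 CPM in proximal and 39.7 to 91.9 CPM in distal libraries, with a log2 fold change of -0.25 (95% interval -0.53 to 0.02), and was lower in proximal lung in 4 of 4 pairs. *FOXJ1*, the master factor of motile cilia, had -0.01 (95% interval -0.34 to 0.31), *TP63* of basal cells -0.48 (-1.52 to 0.55), *MYH11* of smooth muscle -0.0042 (-0.22 to 0.21) and *AGER* of alveolar type 1 cells 0.26 (-0.08 to 0.60). *SCGB1A1*, the club cell secretoglobin, was at 0.614 to 1.18 CPM in proximal and 0 to 0.657 CPM in distal libraries and was higher in proximal lung in 4 of 4 pairs, with a log2 fold change of 1.62 (95% interval 0.09 to 3.15). *SCGB3A2* was at 1.38 to 71.5 CPM in proximal and 2.10 to 38.9 CPM in distal libraries.

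Medians of the marker lists lay near that of all genes. They were 0.09 for 35 genes of ciliated cells, of which 0 passed an unadjusted p of 0.05 in either direction, -0.16 for 15 of basal cells (-0.03 in WT and 0.10 in CF lung), 0.03 for 22 of secretory cells, 0.07 for 21 of smooth muscle and 0.04 for 18 airway epithelial factors. They were 0.0098 for 21 genes of the distal tips, 0.05 for 21 of alveolar type 1 cells, -0.05 for 18 of distal mesenchyme and 0.08 for 21 of airway mesenchyme. In the secretory list 5 members were higher (*SCGB1A1*, *MUC1*, *PIGR*, *TFF3* and *WFDC2*) and 1 lower in proximal lung at an unadjusted p below 0.05, beside 1.91% and 1.44% of all genes. The lower one was *BPIFA1*, which had no read in any proximal library, 0.212 and 0.354 CPM in WT distal and 0.0194 and 0 CPM in CF distal libraries. It entered the test through the WT distal libraries alone, so nothing is read from its p. In the distal tip list 2 of 21 were higher and 3 lower at that limit, and 2 were higher and 6 lower in all 4 pairs, beside 4.30% and 6.06% of all genes. The pairs differed among themselves. The ciliated list, for one, had medians of 0.65 and -0.19 in the WT pairs and -0.31 and 0.27 in the CF pairs. Endothelium had 0.10, capillaries 0.0034, arteries and veins 0.08, pericytes 0.07, epithelium of any kind 0.04 and neuroendocrine cells -0.0054. Cell division was level between regions, with a median of -0.0041 over 30 genes ranging from -0.15 to 0.14.

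Of the 40 lists, 5 had a median of the fitted log2 fold changes above 0.25 in size, and none of these 5 had a positive median in all 4 pairs. Lymphatic vessels (0.35 over 10 genes) had -0.11 in CF pair 2, mesothelium (0.28 over 12) -0.03 in CF pair 1 and lymphoid cells (0.31 over 17) -0.05 in WT pair 2. Heart muscle (0.41 over 7) had -0.28 and -0.21 in the WT pairs and 0.05 and 0.61 in the CF pairs. Skeletal muscle (0.48 over 5) had -0.62 and 0.17 in the WT pairs and -0.11 and 1.78 in the CF pairs. Summed levels of 11 lymphatic genes were 166 to 190 CPM in proximal and 135 to 177 CPM in distal libraries. The 11 skeletal muscle genes in the table, 5 of which were tested, summed to 73.5 CPM in CF proximal replicate 2 and to 18.0 to 29.6 CPM in the other proximal libraries, beside 16.6 to 40.8 CPM in distal libraries. *MYH8*, a myosin of fetal skeletal muscle, reached 4.55 CPM in that library and 0.103 to 0.283 CPM in distal libraries. The 13 heart muscle genes in the table summed to 19.5 to 57.4 CPM in proximal and 24.4 to 60.5 CPM in distal libraries, lower in proximal lung in 4 of 4 pairs although the list's median was above 0, and the 8 genes of squamous epithelium in the table to 1.67 to 4.78 and 1.63 to 3.66 CPM. Without CF pair 2 the medians of the heart and skeletal muscle lists were -0.10 and -0.16. The part of muscle RNA in the differences was not tested. Without CF pair 2 there were 10 DEGs, 6 higher and 4 lower in proximal lung (edgeR).

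**Figure D3:**
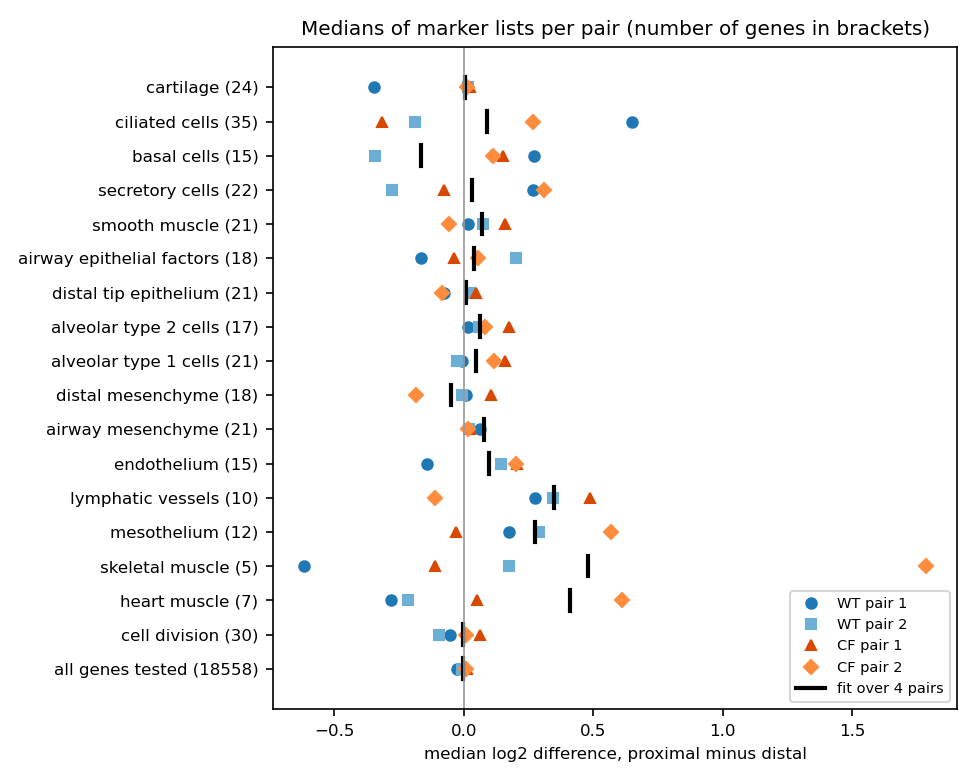
Median log2 difference, proximal minus distal, of 17 gene lists and of all genes tested (x axis), with the number of genes in brackets; coloured points are the 4 pairs and black bars the medians of the fitted log2 fold changes. Most lists scatter around 0, and skeletal muscle is spread widest, with CF pair 2 on the far right.

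WT and CF lungs were also tested separately within 1 fit. In WT lung there was no DEG with edgeR, with 360 genes at an unadjusted p below 0.05 (1.94% of those tested) and 20 DEGs by DESeq2. The smallest adjusted p was 0.295 (edgeR). In CF lung *A2M* was the DEG, with a log2 fold change of -2.15 and an adjusted p of 0.0120 (edgeR), among 306 genes at an unadjusted p below 0.05 (1.65%), and DESeq2 called 15. In WT lung the log2 fold change of *A2M* was -1.42. The difference in region effect between CF and WT gave no DEG with edgeR or DESeq2, with 188 genes at an unadjusted p below 0.05 (1.01%). Of the 37 genes, 22 had the larger difference in WT lung. At an unadjusted p below 0.05, 3 of the 37 differed in region effect between genotypes, namely *A2M*, *LAMA2* (0.87 in WT and 2.08 in CF) and *MFAP5* (0.82 in WT and 1.78 in CF), and the adjusted p of each was 1 (edgeR). *MLIP* is left out of this count although its p was below that limit, because without a read in CF distal lung its difference between genotypes is not measured. These counts depended on single pairs. Without CF pair 1 the CF term had 275 DEGs, 232 of them lower in proximal lung, and without WT pair 1 the WT term had 38, where in each case the remaining pair of that genotype was assumed to vary like the other genotype.

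The size of the difference also varied among pairs within the 37 genes. WT pair 1 had the largest difference of the 4 pairs for 15 genes and CF pair 2 for 14, against 7 for WT pair 2 and 1 for CF pair 1. CF pair 1 had the smallest difference for 15 genes.

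Libraries of the other ages, which played no part in the choice of the 37 genes, were used to see where the day 100 differences recurred. At day 65, 13 of the 20 proximal-side genes were higher in proximal lung, where 50.8% of all genes were, 3 of them with an unadjusted p below 0.05 (1.83% of all genes), and 10 of the 17 distal-side genes were lower (49.2%), 4 with an unadjusted p below 0.05 (3.12%). At day 80, 18 of the 20 proximal-side genes were again higher in proximal lung, where 51.7% of all genes were, and 9 of the 20 with an unadjusted p below 0.05, where 2.03% of all genes were. Of the 17 distal-side genes, 15 were again lower, where 48.3% of all genes were, and 3 of them with an unadjusted p below 0.05, where 0.647% of all genes were. At day 120, 19 of the 20 were higher (45.7% of all genes), 4 of them with an unadjusted p below 0.05 (1.92%), and 12 of the 17 were lower (54.3% of all genes), 5 with an unadjusted p below 0.05 (4.15%). At day 147, 17 of the 20 were higher (51.5% of all genes), 1 with an unadjusted p below 0.05 (3.37%), and 11 of the 17 were lower (48.5%), 5 with an unadjusted p below 0.05 (1.75%). The median log2 fold change of the 20 was 0.18 at day 65, 0.66 at day 80, 1.01 at day 100, 0.44 at day 120 and 0.23 at day 147. That of the 17 was -0.02, -0.16, -0.80, -0.12 and -0.11 at these ages. The day 100 values are the largest in part because the genes were chosen on them.

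Fitted log2 fold changes of individual genes by age follow, from the fit of all 40 libraries. Only day 100 against days 80 and 120 was tested for a change (below), and edgeR called no gene there. *HOXA7* was lower in proximal lung at every age, at -0.74, -1.37, -2.45, -2.79 and -1.33 from day 65 to day 147. *A2M* was as well, at -0.74, -0.85, -1.78, -0.94 and -0.88. *TNXB* and *LAMA2* had fitted values above 0 at every age, at 1.16 and 1.64 at day 65 and 0.26 and 0.41 at day 147. The unadjusted p in this fit (edgeR) was below 0.05 at day 80 alone for *TNXB* and at days 65, 80 and 100 for *LAMA2*. *SLC26A9* was at 0.26, 0.09, 0.33 and 0.04 at days 65, 80, 120 and 147, beside -0.69 at day 100. Of those other ages, day 120 alone had an unadjusted p below 0.05 (edgeR). *COL2A1* was at -0.01 and -0.0021 at days 65 and 80, 1.65 at day 120 and -1.499 at day 147. Its unadjusted p was 0.053 at day 120 and 0.045 at day 147 (edgeR).

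**Figure D4:**
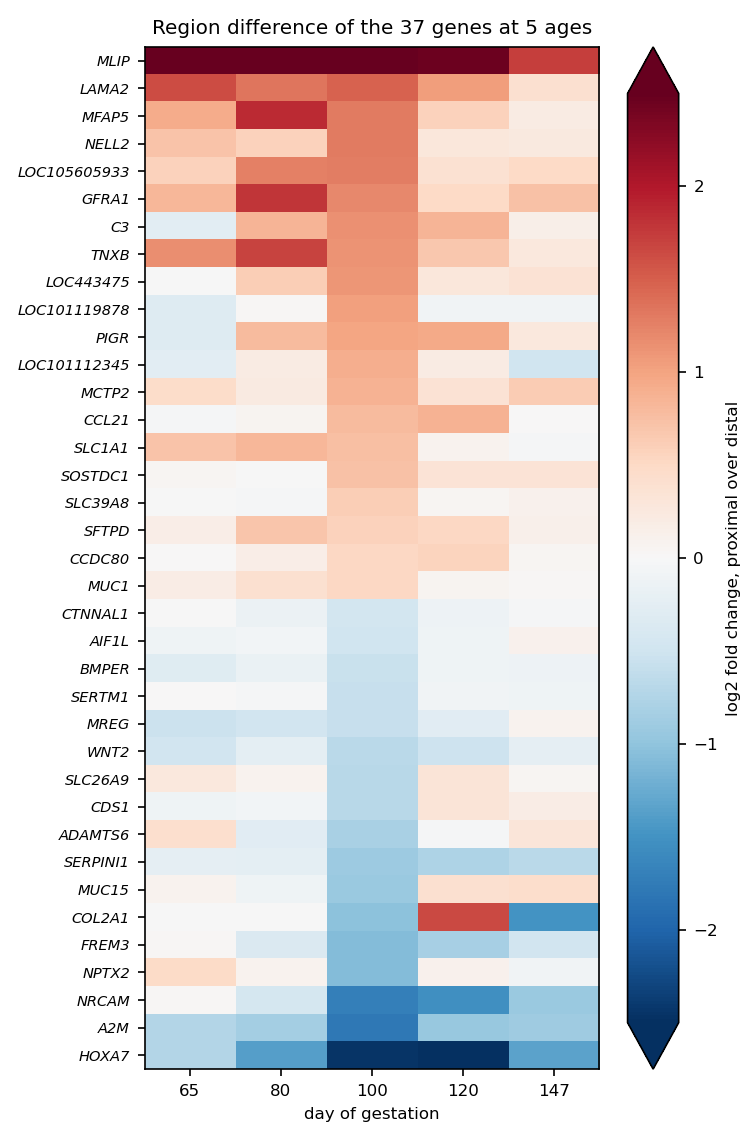
Log2 fold change, proximal over distal (colour, from blue for lower to red for higher in proximal lung, clipped at 2.5 in size), of the 37 genes (rows) at the 5 ages (x axis, days of gestation) from 1 fit of all 40 libraries. The rows were chosen at day 100; LAMA2 and TNXB stay red and HOXA7 and A2M blue at every age, while SLC26A9 and MUC15 are blue at day 100 and pale or red at days 65 and 120.

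The region difference itself was then compared between ages. No gene was a DEG for the difference in region effect between day 100 and day 80 with edgeR, with 276 genes at an unadjusted p below 0.05 (1.43% of those tested) and 2 DEGs by DESeq2. Between day 100 and day 120 there was no DEG either, with 420 genes at an unadjusted p below 0.05 (2.18%) and 6 DEGs by DESeq2. Both comparisons share the day 100 libraries.

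Most of the 37 genes were also among those that changed with age. Day 120 was compared with day 80 over both regions and both genotypes, without any day 100 library, and 9.81% of the genes tested rose and 8.31% fell at the DEG limits. This fit had no term for the pair, so both regions of an animal counted as separate libraries. Its calls and standard errors do not take the pairing into account. Of the 20 genes with higher levels in proximal lung at day 100, 13 rose from day 80 to day 120 and 0 fell. Of the 17 with lower levels, 10 fell and 1, *NPTX2*, rose. The median log2 change of the 20 was 1.65 and that of the 17 was -1.51, beside 0.01 for all genes. *PIGR* rose by 6.77 on the log2 scale (standard error 0.44), *SLC1A1* by 6.20 (0.28), *SFTPD* by 4.57 (0.24), *C3* by 3.63 (0.13) and *MUC1* by 2.16 (0.18). *COL2A1* fell by 6.85 (0.70), *SERTM1* by 4.36 (0.20), *ADAMTS6* by 3.71 (0.25), *NRCAM* by 1.69 (0.30) and *WNT2* by 1.63 (0.19). *A2M*, with a log2 change of 1.39, *HOXA7*, with -1.13, and *MLIP*, with 1.89, were not DEGs over this interval.

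**Figure D5:**
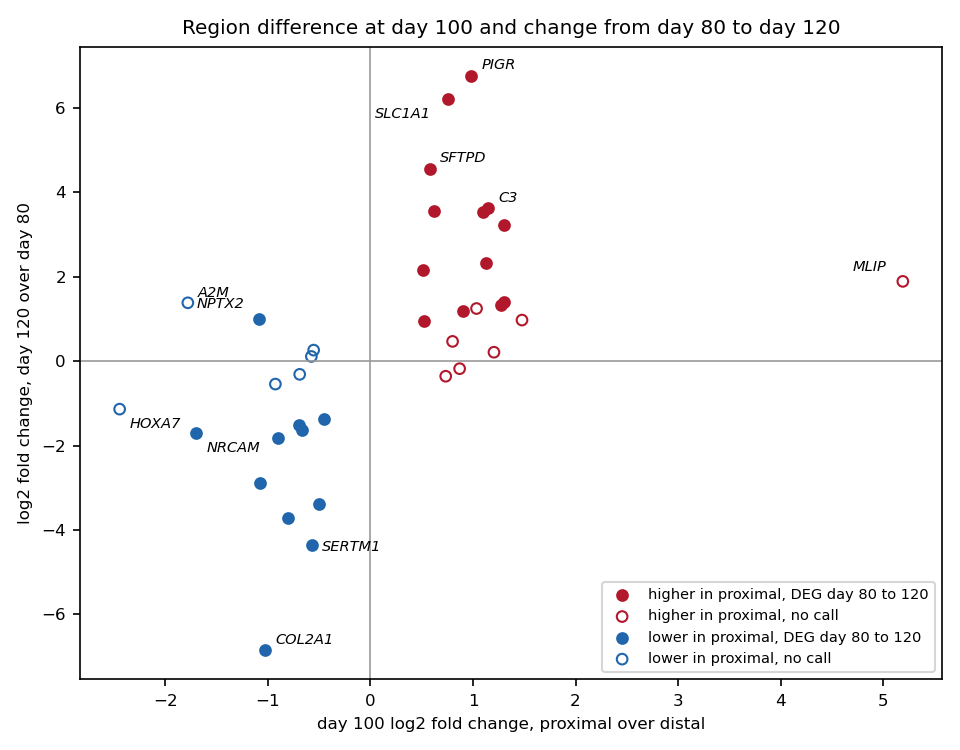
Log2 fold change of the 37 genes between day 120 and day 80 (y axis) against their log2 fold change between proximal and distal lung at day 100 (x axis); filled points are DEGs between day 80 and day 120. Of the genes on the right (higher in proximal lung), 13 of 20 rose with age, and of those on the left, 10 of 17 fell.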

How the data were processed

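RNA was extracted by the authors from frozen lung tissue, and oligo(dT) libraries were read as 100 bp pairs. The authors aligned reads to Oar_v4.0 with STAR (release 2.6 in the submitters' processing notes, a later one in the study's methods) and deposited raw counts per gene from featureCounts 1.6.3, without normalization. The strand setting and treatment of mates are not given in the sources used here. Even numbers made up 73.6% to 78.0% of counts from 1 to 20, as when both mates are counted. How reads in overlapping genes were assigned is also not given.

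Counts of the 8 day 100 libraries were tested with edgeR 4.0.16 (limma 3.58.1, R 4.3.3). Genes passed filterByExpr (count minimum 10, total minimum 15), leaving 18558 of 24478, and were scaled by TMM (factors 0.959 to 1.08). The model had a term for each pair and one for region, in both genotypes together or with 1 region term per genotype, and was tested by glmQLFTest. The numbers pair libraries because the regions of a pair carry 1 animal label, whereas both WT pairs share theirs. The correlation of replicate differences between regions was -0.06 in WT and 0.26 in CF. Contrasts with days 80 and 120 used the 16 libraries of each comparison, and the values by age all 40. The comparison of day 120 with day 80 itself had a term for each genotype, region and age and none for the pair. CPM used TMM-scaled totals.

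LOC identifiers were matched to RefSeq symbols (573 of 8432, ARS-UI_Ramb_v3.0), from which no coordinates were taken. Of 825 genes on 40 lists, 713 were tested, 28 list genes having been matched in this way. The members and lists were chosen with earlier results of these data known. The rule for naming genes was the 12 largest DEGs per direction, up to 4 DEGs per list or its first 2 measured genes where none was a DEG, and genes the study shows. As there was 1 DEG, the limit of 0.001 for the 37 genes, list members at an unadjusted p below 0.05, and the comparison of day 120 with day 80 were added after values were seen. Alternatives were RLE, no filter, DESeq2 1.42.0, no pair block, each pair left out, other limits on p, glmTreat, the bias-adjusted quasi-likelihood, summed WT pairs, thinned counts and larger or smaller sets of libraries.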

Additional observations from a re-analysis of the deposited data

Results flagged for a closer look

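In 7 of 77 values (37 genes and 40 list medians) 1 of the 4 pairs lay far from the other 3 by Dixon's ratio (the gap to the nearest pair over the whole range), past its 95% critical value, which chance passes in about 1 of 20 groups. For *NRCAM* (ratio 0.974), *CDS1* (0.865), *HOXA7* (0.838) and *FREM3* (0.898), CF pair 1 had a smaller difference between regions than the other pairs. For *CCL21* (0.893), WT pair 1 had the largest difference. The list medians of cartilage (0.970) and NOTCH genes (0.893) were lower in WT pair 1, at -0.34 and -0.23, than in the other pairs. The cause was not tested.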

How the results depend on the processing

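The number of DEGs between proximal and distal lung was 1 with RLE, 6 without a filter, 50 with DESeq2, 3 with the bias-adjusted quasi-likelihood and 0 without the replicate block, at adjusted p limits of 0.001 or 0.01, with glmTreat, with the WT pairs summed, with thinned counts or with all 40 libraries in 1 fit. Leaving out 1 pair gave 0 to 10. *A2M* kept its call in 6 of 15 alternatives, with an adjusted p of 4.02e-19 (DESeq2) to 0.322 (edgeR) and log2 fold changes of -1.93 to -1.61. The 37 genes kept their direction in all 555 values under alternatives. Their choice made this nearly certain, since each had 1 direction in every pair, and the values at other limits on p are those of the main fit. Nothing is read from it. Of the 37, 29 other than *A2M* were DEGs under at least 1 alternative, mostly DESeq2. In WT lung the main count of 0 became 4 without a filter, 20 with DESeq2, 6 in WT libraries alone and 4 to 38 with a pair left out. In CF lung the count of 1 became 0 without the replicate block, 15 with DESeq2, 29 in CF libraries alone and 1 to 275 with a pair left out. CF minus WT gave 0 to 101 with a pair left out, 101 being without CF pair 1. The comparisons of day 100 with day 80 and day 120 gave 2 and 6 with DESeq2 and 0 otherwise. The replicate block changed no other call. Of 200 list medians with RLE or a pair left out, 195 moved by less than the SD between pairs. The causes were not tested. The fit had 3 residual degrees of freedom.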
